A study of Mus musculus with 2 samples.

Results

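The RNA-Seq values of 33 genes for the synthesis, uptake, movement and export of cholesterol were compared between brown preadipocytes (D0) and differentiated brown adipocytes (D7). The genes were taken by symbol from a fixed list of 35 symbols, in which some genes appear under an older and a newer symbol, and 33 of the 23361 rows with values matched. Each of the 33 genes was above 0 in both libraries. The preadipocytes came from the interscapular brown fat of newborn C57BL/6 mice, and there was 1 library per stage. Both stages were grown before day 0 in serum-containing medium with T3 at 1 nM and insulin at 0.1 μM. The D7 cells were in addition induced with dexamethasone at 2 μg/ml, indomethacin at 0.125 mM and IBMX at 0.5 mM, which were withdrawn again before day 7. These doses are those of the sample labels, and the paper's methods give other doses of insulin and dexamethasone. The labels call the cells primary cultures, while the methods describe cells immortalized with large T antigen. The methods name several newborn mice of either sex, and whether their cells were pooled was not stated.

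Cells make cholesterol from acetyl-CoA through mevalonate, farnesyl diphosphate, squalene and lanosterol, and they also take it up in lipoproteins. The transcription factor SREBP-2 (Srebf2) switches on genes of synthesis and uptake when sterol in the endoplasmic reticulum is low. INSIG proteins hold SREBP-2 with its escort SCAP in the endoplasmic reticulum when sterol is high. Liver X receptors, activated by oxysterols, switch on genes of export such as Abca1, Abcg1 and Apoe. In fat cells, much of the free cholesterol lies at the plasma membrane and the surface of lipid droplets.

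The deposited value of a gene is its FPKM, which scales fragments to 1 kb of transcript length and to 1000000 reads of the library. It was used without a pseudocount and without rescaling between libraries, and a gene was called higher where D7 over D0 was 2.0 or more and lower where it was 0.5 or less. A single library per stage allowed no test, so no p-value is given and the spread between cultures is unknown. FPKM is relative to a denominator that was recovered from low values of single-exon genes, 21.5 (D0) and 18.3 (D7) when counted in units of 1000000 fragments. About 102 to 20943 fragments lay behind a value of these 33 genes. The 95% intervals of ratios given here are exact Clopper-Pearson intervals on such approximate numbers of fragments, and they cover counting error only. All 7 adipocyte markers examined (Pparg, Cebpa, Fabp4, Adipoq, Plin1, Cidec and Lipe) were higher at D7. The brown markers Ucp1, Cidea and Elovl3 had values of 4.57, 24.4 and 34.2 FPKM in D7 cells and were listed at 0 in D0 cells. The preadipocyte and fibroblast list was mixed, with Col1a1, Pdgfrb and Thy1 lower, Cd34 higher, and Pdgfra, Dcn and Col3a1 within 2.0-fold. All 6 genes of proliferation were lower at D7, and the summed FPKM of 6 endothelial markers was 0.995 at D0 and 2.32 at D7.

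The cholesterol genes did not move as 1 block. At D7, 12 of the 33 genes were higher, 4 were lower and 17 stayed within 2.0-fold. That is 36.4% higher and 12.1% lower. Over all 14986 genes above 0 in both libraries, 18.5% were higher and 13.2% were lower. Over the 11967 genes with an FPKM of at least 1 in at least 1 library, these shares were 15.6% and 11.9%. As deposited, the share of lower cholesterol genes was thus near the background, and the share of higher ones was above it. The median log2 ratio of the 33 genes was 0.13, beside 0.02 over all genes, with a range from -1.79 (Soat1) to 4.37 (Apoe). By role, the median log2 ratio was highest in uptake and export, at 2.02 over 5 genes. It was 0.81 over the 11 enzymes from the formation of squalene to cholesterol. The 7 enzymes of the mevalonate arm had -0.22, and the 6 genes of SREBP-2 and its processing had -0.17. The 4 genes of intracellular movement and esterification had the lowest median, -0.83. A floor of 0.01 with division of each library by its median shifted the log2 ratio of genes above the floor by -0.35 and gave 9 higher and 8 lower cholesterol genes. Under it the median of the 33 genes turned to -0.22, and 57.5% of all changed genes were lower, beside 41.7% as deposited. Over all 23361 rows with values, genes at 0 included, it gave 2836 higher and 3832 lower genes. These are the numbers of up- and downregulated genes that the paper reports. With this scaling, the shares of higher and of lower cholesterol genes were both above those of all rows. All rows include genes at 0 in a library, whereas each of the 33 genes was above 0 in both, so the comparison is uneven.

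**Figure D1:**
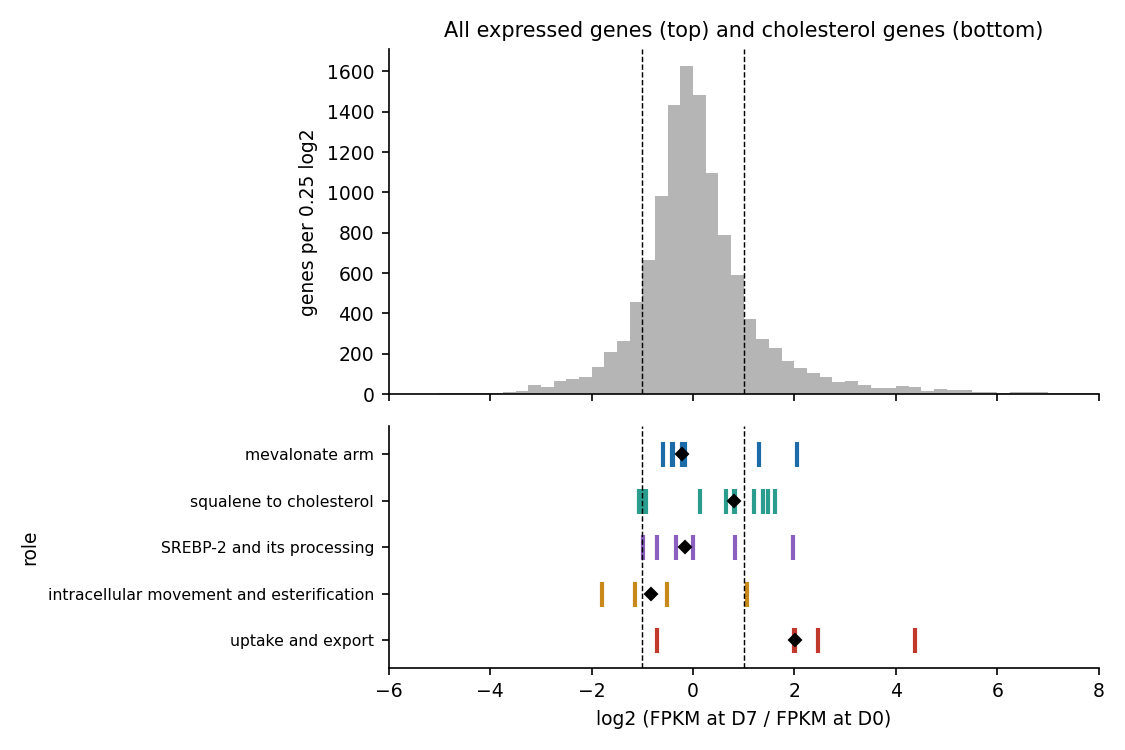
The upper panel counts genes with an FPKM of at least 1 in at least 1 library by their log2 ratio of D7 to D0, in bins of 0.25, and leaves out 51 genes outside -6 to 8. The lower panel marks each cholesterol gene by its role, with a diamond at the group's median and dashed lines at 2.0-fold. The uptake and export genes sit to the right except Lrp1, and the movement and esterification genes sit to the left except Npc2.

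Acetyl-CoA is brought to farnesyl diphosphate by the mevalonate arm, and here the ends of the range were far apart. Pmvk, which adds the second phosphate to mevalonate, had 22.2 FPKM at D0 against 92.1 at D7. Its ratio of 4.14 (95% interval 3.73 to 4.58) was the highest of the 18 synthesis enzymes. Acat2, the cytosolic thiolase that joins acetyl-CoA units, had 36.0 FPKM at D0 against 89.4 at D7, a ratio of 2.49 (2.34 to 2.64). Acat2 has a near-identical neighbour, Acat3, whose FPKM was 14.7 at D0 against 10.8 at D7, so how reads were split between them could affect its value. The other 5 enzymes of the arm had ratios below 1, none of which reached 0.5.

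Mvk, the mevalonate kinase that acts directly before Pmvk, went the other way, from an FPKM of 28.3 to 18.8. Its ratio was 0.665 (0.593 to 0.740). Hmgcs1, the cytosolic HMG-CoA synthase, had 86.9 FPKM at D0 against 74.4 at D7, a ratio of 0.856. Mvd, which decarboxylates mevalonate diphosphate, had 38.4 FPKM against 34.5, a ratio of 0.899. These latter ratios lay below 1 by more than counting error, with intervals that end at 0.889 and 0.977, and both are small. Idi1, the isopentenyl diphosphate isomerase, had 39.4 FPKM at D0 against 30.0 at D7. Fdps, the farnesyl diphosphate synthase, was the most abundant enzyme of synthesis at D0, with an FPKM of 206, and had 155 at D7. Its exons, merged over its annotated transcripts, share 1124 bp with Gm43738 on the same strand, so its value and rank are uncertain. The ratios of Idi1 and Fdps were 0.761 and 0.751. The summed FPKM of the 7 genes was 458 at D0 and 494 at D7.

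**Figure D2:**
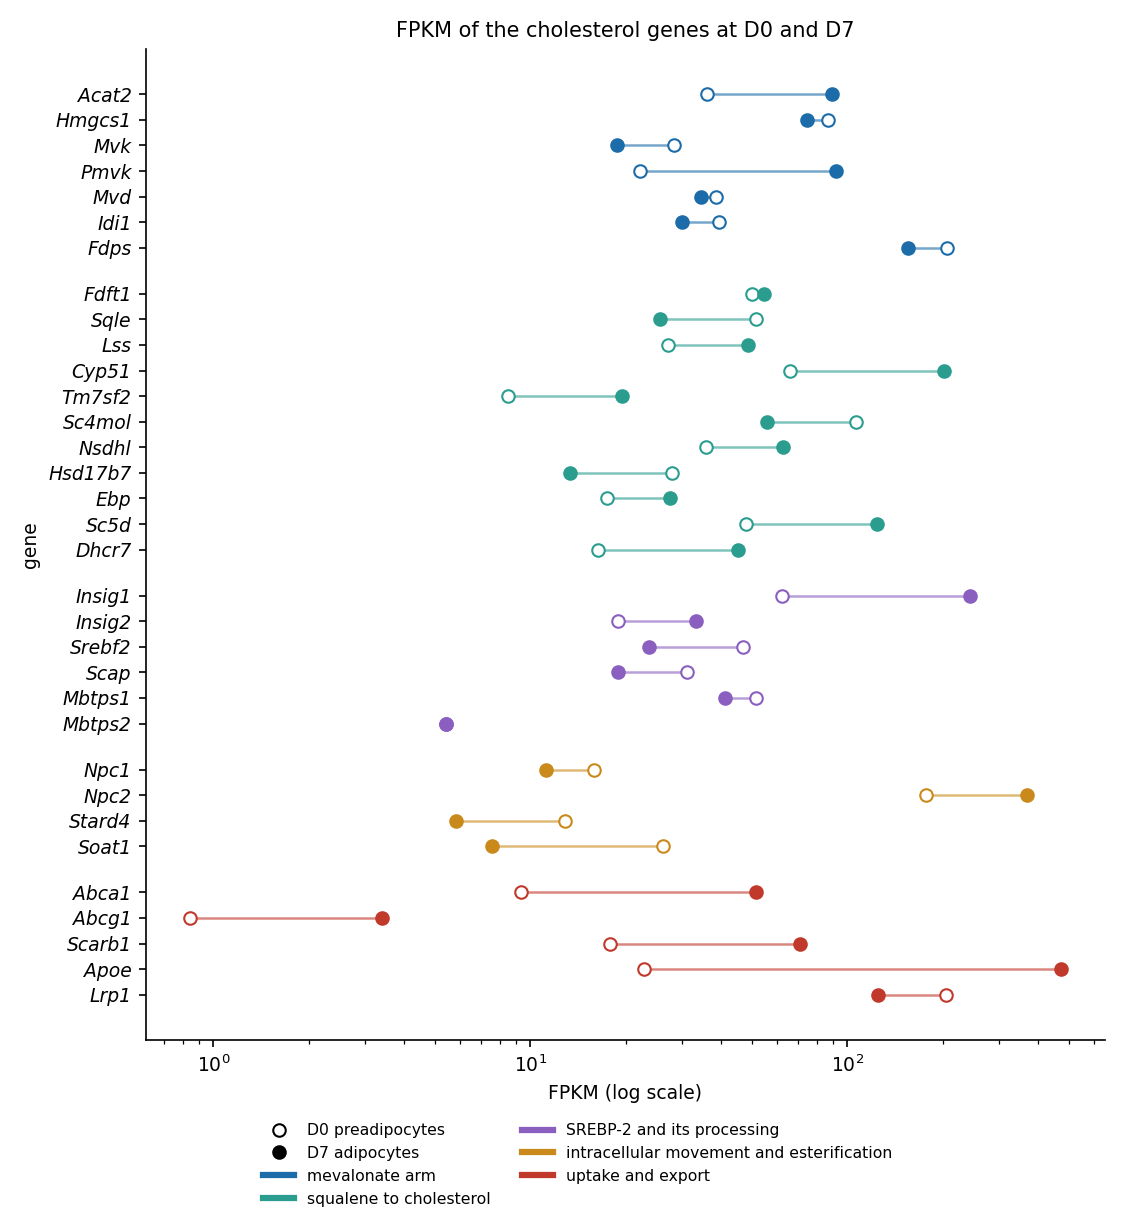
FPKM (log axis) of each of the 33 cholesterol genes at D0 (open circles) and D7 (filled circles), grouped and coloured by role, with 1 library per stage and no error bars. The widest gap is that of Apoe, from 22.8 to 472, and the circles of Mbtps2 coincide at 5.4.

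From the formation of squalene onward, 8 of the 11 enzymes had a ratio above 1, and 4 of these reached 2.0. Cyp51, the lanosterol demethylase, had 66.1 FPKM at D0 against 202 at D7, a ratio of 3.06 (2.96 to 3.15). Dhcr7, which catalyses the last step in the branch through 7-dehydrocholesterol, had 16.3 FPKM against 45.2, a ratio of 2.77 (2.56 to 2.99). Sc5d, the lathosterol desaturase, had 47.9 FPKM against 124, a ratio of 2.59 (2.50 to 2.68). These 3 genes sat past 2.0-fold with their whole intervals. Tm7sf2, a sterol reductase, was the least abundant of the 18 synthesis enzymes at D0, with an FPKM of 8.49, and had 19.5 at D7. Its ratio was 2.30, and its interval from 1.95 to 2.69 includes 2.0. Exons of Tm7sf2 share 532 bp with Vps51 on the same strand, so its value is less certain.

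Lss, Nsdhl, Ebp and Fdft1 had ratios of 1.78, 1.75, 1.58 and 1.10, with intervals above 1 for each. Lss closes squalene epoxide to lanosterol, Nsdhl takes part in the removal of methyl groups, Ebp shifts a double bond of the ring and Fdft1 joins farnesyl units to squalene. Fdft1 was the nearest to 1, with 49.9 FPKM at D0 against 54.6 at D7, and its ratio turned to 0.859 after the floor and division by the library median. It shares 774 bp of exons with Ctsb on the opposite strand. The 3 enzymes on the other side of 1 were Sqle, Sc4mol and Hsd17b7. Sqle, the squalene epoxidase and a rate-limiting enzyme of the pathway, had 51.3 FPKM at D0 against 25.6 at D7. Its ratio of 0.499 (0.466 to 0.534) is at the threshold itself, and it was called lower as deposited but not with a pseudocount of 0.1 or 1. Sc4mol, the sterol methyl oxidase now named Msmo1, had 106 FPKM against 55.8, a ratio of 0.529 that did not reach 0.5. Hsd17b7, a sterol ketone reductase, had 28.0 FPKM against 13.3, a ratio of 0.476 (0.442 to 0.510).

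Neighbouring steps of synthesis thus differed in direction. Sc4mol, Nsdhl and Hsd17b7 act together in removing the methyl groups of the sterol ring, and their ratios were 0.529, 1.75 and 0.476. The level of Cyp51 was 1.29 times that of Sqle at D0 and 7.89 times at D7. The level of Sc5d was 0.453 times that of Sc4mol at D0 and 2.22 times at D7, and the level of Pmvk was 0.785 and 4.89 times that of Mvk. A ratio of FPKM within a library does not depend on scaling between the libraries. These pairs were chosen after the values were seen. Over all 18 synthesis enzymes, the summed FPKM was 911 at D0 against 1173 at D7, with 6 genes higher, 2 lower and 10 within 2.0-fold.

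**Figure D3:**
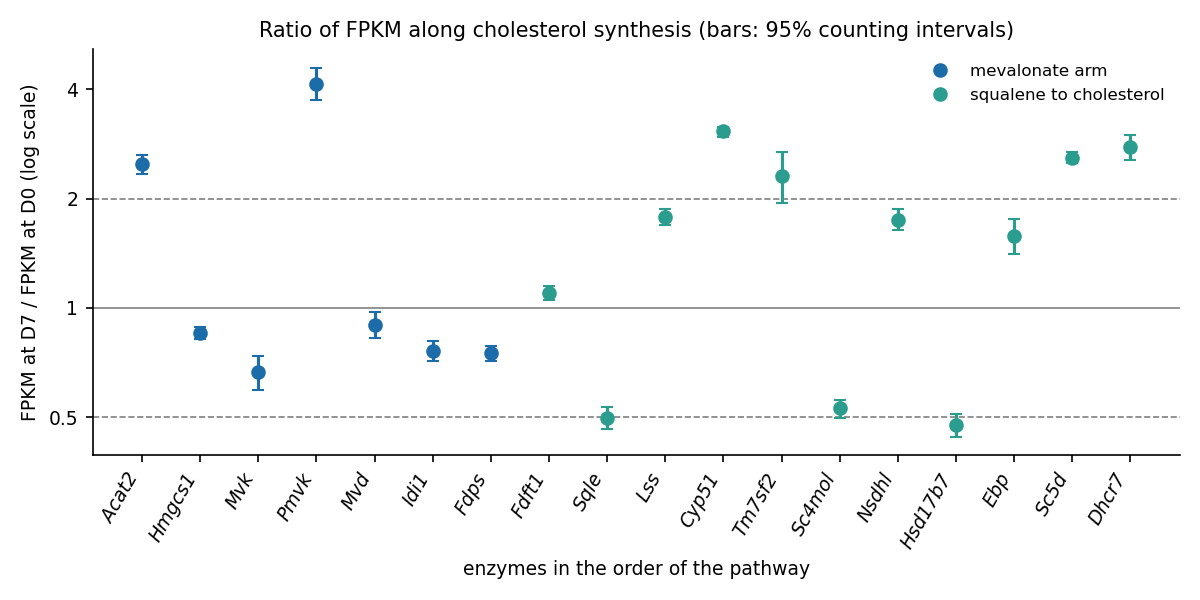
Ratio of FPKM at D7 to FPKM at D0 (log axis) for the 18 enzymes of synthesis in pathway order, with bars for 95% counting intervals and dashed lines at 2.0 and 0.5. Pmvk stands at 4.14 between Mvk at 0.665 and Mvd at 0.899, and Sqle, Sc4mol and Hsd17b7 lie near 0.5 among enzymes above 1.

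Of the 6 genes of SREBP-2 and its control, 1 was higher and 5 were within 2.0-fold. Insig1, whose product retains SCAP and SREBP-2 and which is itself a target of SREBP, had 62.2 FPKM at D0 against 243 at D7. Its ratio was 3.91 (3.76 to 4.07), past 2.0-fold with its whole interval. Its paralog Insig2 had 18.9 FPKM against 33.4, a ratio of 1.77 (1.56 to 1.99). Insig1 was the more abundant of the pair at both stages, by 3.30 times at D0 and 7.28 times at D7. Srebf2 itself had 46.7 FPKM at D0 against 23.7 at D7. Its ratio of 0.507 (0.481 to 0.533) stayed just above 0.5, and it was at or below 0.5 with TPM, with the upper quartile and with the floor and library median. Scap had 31.1 FPKM against 18.9, a ratio of 0.607 (0.568 to 0.648). Srebf2 and Scap thus had ratios below 1 that did not reach 0.5 while Insig1 was higher, and the level of Insig1 relative to Srebf2 was 1.33 at D0 and 10.3 at D7. The proteases that release SREBP-2 changed less. Mbtps1 (site-1 protease) had 51.6 FPKM against 41.0, a ratio of 0.795. Mbtps2 (site-2 protease) had 5.42 FPKM against 5.41, and its interval from 0.877 to 1.13 is the only one of the 33 that includes 1. Yy2 lies within Mbtps2 and shares 2867 bp of its exons on the same strand.

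The 250 bases before the start of transcription were read from RefSeq promoters (GRCm38.p6) for 26 of the 33 genes, taking the start farthest upstream. Exact letters were searched on both strands. The core of a sterol regulatory element, TCACNCCAC, was found in Hmgcs1 alone (3.85% of the 26), beside 1.03% of 27025 genes with a promoter. CACCCCAC, which can overlap the former, was in 2 of 26, Acat2 and Hmgcs1, beside 2.51%. CCAAT, the box read by NF-Y, a partner of SREBP, was in 18 of 26 (69.2%), beside 34.5% of all genes and 36.9% of 8896 expressed genes. It was in 6 of 10 genes that were higher at D7, in 10 of 14 within 2.0-fold and in both of the lower ones, so it was found at either direction. The GC box GGGCGG was in 20 of 26 (76.9%), beside 33.0% of all and 61.3% of expressed genes, and CACGTG was in 4, Abca1, Hsd17b7, Insig1 and Sc5d, beside 6.04% and 8.70%. These are exact matches of letters, not measured binding. Elements with other letters, or outside these 250 bases, would be missed, so a gene without a match may still hold one. Abcg1, Fdft1, Fdps, Npc1, Scarb1, Sqle and Stard4 had no promoter in the table used.

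Promoters of 4 genes with different ratios are shown, chosen after the values were seen, with letters of any of these motifs in capitals. Hmgcs1 (ratio 0.856) holds the core element, Cyp51 (3.06) and Insig1 (3.91) hold CCAAT and GC boxes, Insig1 also CACGTG, and Apoe (20.7) holds none of them. They lie at chr13:119690101-119690350 on the plus strand, chr5:4104698-4104947 on the minus strand, chr5:28071162-28071411 on the plus strand and chr7:19699189-19699438 on the minus strand.
Hmgcs1: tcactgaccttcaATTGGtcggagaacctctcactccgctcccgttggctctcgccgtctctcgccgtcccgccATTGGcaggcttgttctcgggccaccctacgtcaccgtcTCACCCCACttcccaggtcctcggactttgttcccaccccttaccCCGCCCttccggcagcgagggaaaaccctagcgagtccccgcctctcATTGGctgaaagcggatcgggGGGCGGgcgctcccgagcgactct
Cyp51: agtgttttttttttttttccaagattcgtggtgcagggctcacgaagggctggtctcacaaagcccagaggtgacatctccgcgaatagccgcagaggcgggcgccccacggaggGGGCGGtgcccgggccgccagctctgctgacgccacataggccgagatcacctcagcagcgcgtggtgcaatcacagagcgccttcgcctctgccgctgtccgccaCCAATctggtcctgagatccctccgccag
Insig1: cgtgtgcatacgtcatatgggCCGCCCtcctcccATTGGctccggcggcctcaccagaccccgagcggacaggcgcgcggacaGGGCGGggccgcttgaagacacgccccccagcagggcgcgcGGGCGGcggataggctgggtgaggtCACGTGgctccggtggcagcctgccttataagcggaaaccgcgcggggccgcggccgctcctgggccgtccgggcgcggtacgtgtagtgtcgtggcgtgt
Apoe: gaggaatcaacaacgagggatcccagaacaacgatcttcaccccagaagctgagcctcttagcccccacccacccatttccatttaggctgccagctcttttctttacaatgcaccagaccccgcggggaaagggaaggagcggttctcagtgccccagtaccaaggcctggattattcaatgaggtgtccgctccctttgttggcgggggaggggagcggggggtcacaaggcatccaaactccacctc

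Of the 4 genes that move or esterify cholesterol within the cell, 2 were lower (Soat1 and Stard4), 1 was higher (the lysosomal carrier Npc2) and Npc1 was within 2.0-fold. Soat1, which esterifies cholesterol for storage, lies on chromosome 1 from 156424525 to 156474331 on the minus strand. Its FPKM was 26.1 at D0 against 7.54 at D7, a ratio of 0.289 (0.271 to 0.309), which was the lowest of all 33 genes. It was also the only one whose whole interval lay below 0.5. Stard4, a soluble sterol carrier and an SREBP-2 target, had 12.9 FPKM against 5.82, a ratio of 0.452 (0.408 to 0.501). Npc1 and Npc2 hand cholesterol out of the lysosome together, but their values went apart. Npc1 had 15.9 FPKM at D0 against 11.2 at D7, a ratio of 0.703. Npc2 had 177 FPKM against 368, a ratio of 2.08 (2.03 to 2.13), which was 1.63 after the floor and division by the library median. The level of Npc2 was 11.1 times that of Npc1 at D0 and 32.9 times at D7. Npc1 shares 511 bp of exons with Rmc1 on the opposite strand.

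Of the 5 genes of uptake and export, 4 were higher at D7, and Apoe and Abca1 had ratios above those of all other cholesterol genes. Apoe, the apolipoprotein that carries cholesterol out of macrophages and fat cells, lies on chromosome 7 from 19696109 to 19699188 on the minus strand, where no exon of another annotated gene overlaps it. Its FPKM was 22.8 at D0 against 472 at D7, a ratio of 20.7 (19.0 to 22.5). By rank among the 14986 genes, it stood at percentile 77.4 at D0 and 98.8 at D7. Abca1, the transporter that loads cholesterol onto lipid-poor apolipoproteins, lies on chromosome 4 from 53030787 to 53159895. It had 9.33 FPKM against 51.4, a ratio of 5.51 (5.25 to 5.78). Abcg1, which exports cholesterol to HDL, was the least abundant of the 33 genes, with 0.842 FPKM at D0 against 3.41 at D7. Its ratio of 4.05 (3.25 to 5.11) rests on about 102 and 352 fragments. Scarb1, the HDL receptor SR-BI, which moves cholesterol in either direction, had 17.8 FPKM against 70.7, a ratio of 3.98 (3.69 to 4.29). Each of these 4 genes was past 2.0-fold with its whole interval, and each stayed past it in the 8 rescalings, pseudocounts and filters tried. Lrp1, a large endocytic receptor that binds ApoE, was within 2.0-fold, with 204 FPKM at D0 against 125 at D7, a ratio of 0.612 (0.589 to 0.634). This interval rests on a named transcript of only 2097 bp, so its width is uncertain.

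Abca1 and Soat1 take the same substrate to different ends, and their levels crossed. The level of Abca1 was 0.358 times that of Soat1 at D0 and 6.81 times at D7. Apoe stood at 0.112 times the level of Lrp1 at D0 and at 3.79 times at D7. Such levels between genes also depend on the transcript lengths behind the FPKM, which are uncertain for Lrp1. The level of Abca1 relative to Abcg1, 11.1 at D0 and 15.1 at D7, differed less. These pairs, like those of Insig1 and Npc2 above, were also chosen after the values were seen. Soat1 had the lowest ratio of all cholesterol genes, so a wide change beside Abca1 follows from that choice.

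Apoe, Abca1, Abcg1 and Npc2 are also strongly expressed in macrophages, and macrophage markers were present in these libraries. Of 13 markers with values, 12 (92.3%, beside 18.5% of all genes) were higher at D7. Cd14 stayed within 2.0-fold, at a ratio of 1.06. None was lower, beside 13.2% of all genes. The summed FPKM of the 13 markers was 162 at D0 against 618 at D7, a ratio of sums of 3.81. Their median log2 ratio was 2.59, with none at 0. Soat1, which macrophages also express, was lower. The part of macrophages in the values of these genes was not tested. In a culture measured in bulk, more cells of a type and more RNA per cell cannot be told apart.

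Neighbouring pathways were described in 8 further lists. Each gene of the SREBP-1 lipogenic list was higher, 9 of 9 with a median log2 ratio of 4.94, including Thrsp, Scd1 and Fasn. Fasn, the fatty acid synthase, had 41.2 FPKM at D0 against 1592 at D7, a ratio of 38.6. By comparison, the highest ratio of a synthesis enzyme of cholesterol was the 4.14 of Pmvk. Srebf1, which encodes SREBP-1, had 24.2 FPKM against 146, a ratio of 6.04 (5.76 to 6.33), while Srebf2 had a ratio of 0.507. The level of Srebf2 was therefore above that of Srebf1 at D0 and below it at D7.

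In the list of liver X receptors and target genes, 4 of 10 genes above 0 in both libraries (40.0%) were higher and 1 (10.0%) was lower. Over all genes these shares were 18.5% and 13.2%. Nr1h3, which encodes LXRα, had 2.53 FPKM at D0 against 33.6 at D7, a ratio of 13.3 (10.7 to 16.4). Nr1h2, which encodes LXRβ, stayed at 29.6 and 31.4, a ratio of 1.06 with an interval from 0.975 to 1.16. Nr1h3 was therefore far below Nr1h2 at D0 and at a similar level at D7. Lpcat3 was higher with a ratio of 3.52, and Arl4c was lower with a ratio of 0.180. Apoc1, the neighbour of Apoe in the genome, reached 435 FPKM in D7 cells and was listed at 0 in D0 cells. A count of 0 allows up to 3 fragments, an FPKM of 0.396 for Apoc1 at D0, so its value at D7 was at least 1099-fold higher than this limit. The oxysterol enzymes were few and mostly scarce. Ch25h, which makes the oxysterol 25-hydroxycholesterol, had 7.31 FPKM at D0 against 1.31 at D7, and Cyp27a1, which makes 27-hydroxycholesterol, had 0.490 and 13.2. Of these 6 genes, 4 (66.7%) were higher and Ch25h (16.7%) was lower, beside 18.5% and 13.2% of all genes. The ratio of Hsd3b7 was 3.31 (2.95 to 3.69). Sult2b1, with about 8 and 20 fragments, had a ratio of 2.80 (1.24 to 7.71), and Cyp46a1, with about 14 and 30, had 2.52 (1.30 to 5.14), so neither interval lies wholly past 2.0-fold.

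Of 17 lipoprotein receptors and partners above 0 in both libraries, 7 (41.2%) were higher and 3 (17.6%) were lower, beside 18.5% and 13.2% of all genes. Of the lower ones, Lsr rests on about 6 and 1 fragments, and the interval of its ratio, 0.00426 to 1.61, includes 1. Sorl1, a sorting receptor, had 0.303 FPKM at D0 against 21.6 at D7, and Lpl, the lipoprotein lipase, had 47.5 and 1618. Stab1, a scavenger receptor of macrophages and endothelium, had a ratio of 9.01. Lrp8, a receptor for ApoE, was lower, with 2.28 FPKM against 0.277, a ratio of 0.122 (0.0586 to 0.211). Vldlr, another receptor of this list, was higher, with 4.85 FPKM against 18.7, a ratio of 3.86 (3.57 to 4.18). Of 24 genes of ester hydrolysis and sterol transfer, 5 (20.8%) were higher and 1 (4.17%), Osbpl3, was lower, and the median log2 ratio was 0.05. The higher share was near the 18.5% of all genes, and the lower share was below the 13.2%. Lipe, the hormone-sensitive lipase that also splits cholesterol esters, had a ratio of 106, and the carriers Scp2 and Osbpl1a had ratios of 5.63 and 3.53. The other 18 were within 2.0-fold, among them Lipa, the acid lipase of the lysosome, at 1.08.

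The isoprenoid branch leaves the pathway at farnesyl diphosphate, and 12 of its 13 genes were within 2.0-fold, with Pdss1 at 2.13. The interval of Pdss1, 1.58 to 2.93, includes 2.0. Among 14 electron donors and accessory factors, Por, the cytochrome P450 reductase that serves Cyp51 and Sqle, had a ratio of 2.21 and Cyb5b of 2.31. Sec23a, a coat protein of the vesicles that leave the endoplasmic reticulum, was lower with a ratio of 0.496, and the other 11 were within 2.0-fold. The shares of higher genes in the isoprenoid and accessory lists were 7.69% and 14.3%, beside 18.5% of all genes. Their shares of lower genes were 0% and 7.14%, beside 13.2%. Among mitochondrial thiolases and ketone body enzymes, Acat1, the mitochondrial thiolase, had a ratio of 3.51 and Acaa2 of 9.67, while Bdh1 was lower with a ratio of 0.388. All lists share these 2 libraries, so their values are not independent of each other.

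**Figure D4:**
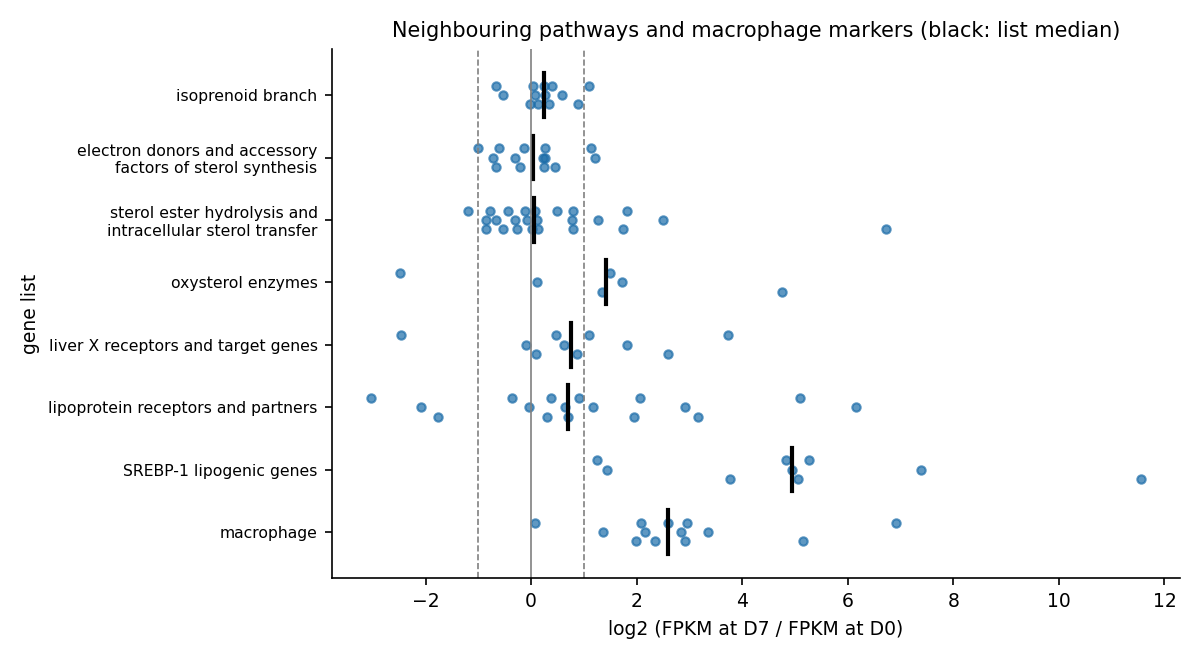
Each point is the log2 ratio of D7 to D0 of 1 gene in 7 of the neighbouring pathways or the macrophage list, black bars are list medians, and dashed lines mark 2.0-fold. The lipogenic genes lie at 1.25 and above, while the isoprenoid and accessory genes centre near 0, and Apoc1 and Lipc are left out because they were listed at 0 at D0.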

How the data were processed

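RNA-Seq was analysed for 1 library of brown preadipocytes (D0) and 1 of brown adipocytes (D7). The authors removed low-quality, duplicate and rRNA reads, aligned the rest to mm10 and gene sequences with SOAP2, giving the deposited table, in which each gene has an FPKM for each library. The submitters' processing notes list Bowtie2. The counting tool and its use of strand were not given in the sources used here. Of 27324 rows, 3963 carried no value.

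Ratios of FPKM used no pseudocount. Fragments behind a value were recovered from 603 single-exon genes of at least 600 bp, where each of 81 (D0) and 88 (D7) low values came within 0.1 of a whole fragment after 179 and 182 bp were taken from the length. For other genes the named transcript of GENCODE M21 (31 of the 33) or else the longest one gave the length, so their fragments are approximate. Coordinates are those of mm10 (GRCm38). The members, gene lists and role groups were chosen with earlier results of these data known. Every member is named, and of each other list at most 3 genes per direction past 2.0-fold with FPKM of at least 1, beside genes that answer a statement about a list, chosen after their values were seen. Alternatives were pseudocounts of 0.1 and 1, TPM, median centring, the upper quartile, a floor of 0.01 with the library median, a filter at FPKM of 1, summed rows, a threshold of 4.0 and intervals wholly past 2.0-fold. A gene of the mitochondrial list is not reported here, and that list is not plotted. Scripts were tested on simulated data. Calculations used scipy 1.17.1 for intervals, pandas 2.3.3 with numpy 2.4.6 for tables and matplotlib 3.10.9 for plots, under Python 3.11.15.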

Additional observations from a re-analysis of the deposited data

How the results depend on the processing

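No paired analysis was possible because each stage has 1 library, and no library could be left out. A median was taken as moved when its fold changed by over 1.5 times. At a threshold of 4.0, 4 of the 33 cholesterol genes were higher and 0 lower, beside 1211 and 578 of all 14986 genes. The share of higher cholesterol genes was thus closer to that of all genes than at 2.0-fold. In the other lists, 19 and 4 genes were higher and lower. With intervals wholly past 2.0-fold, 1 cholesterol gene was lower, 4 genes of the other lists were lower, and 1660 and 1056 of all genes were higher and lower. The floor with the library median gave 8 lower cholesterol genes, 15 lower genes of the other lists and 3832 lower genes in all. The last is the number of downregulated genes that the paper reports. A pseudocount of 1 gave 3 lower genes of the other lists, a median of 0.53 for the oxysterol enzymes, and 1455 higher and 1009 lower genes in all. The median log2 ratio of the cholesterol genes was 0.73 without the mevalonate arm and 0.81 without the 10 genes whose exons overlap another gene, a choice made after seeing the data. Medians of the isoprenoid, accessory and ester hydrolysis lists turned to -0.10, -0.31 and -0.31 with the floor and library median. The cause of these shifts was not tested. Over the 8 rescalings, pseudocounts and filters, 9 of the 12 higher and 3 of the 4 lower genes kept their call. Acat2, Npc2 and Tm7sf2 lost it, and Lrp1, Sc4mol, Scap and Srebf2 gained one, with the floor and library median. Among the limits are the single library per stage and the choice of scaling, and the lowest value of the 33 genes rests on about 102 fragments.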
